A study of Mus musculus with 4 samples.

Results

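S1pr5, Klrg1, Cx3cr1 and Zeb2 are 4 of the 31053 genes listed for this series, and the account below follows their messenger RNA in single cells of the mouse pancreas and its draining lymph node. The 4 genes were selected on measured values, because their levels in CD8 T cells of the pancreas were lower in 1 library than in the other. Those levels are therefore given as a description and are not evidence for a difference. Each gene was read in 3 classes of cell barcode set by marker UMIs (unique molecular identifiers, 1 per captured transcript). CD8-only T barcodes had at least 1 UMI of Cd3e or Cd3d, at least 1 of Cd8a or Cd8b1 and none of Cd4. NK barcodes had at least 1 UMI of Ncr1 and none of Cd3e, and monocyte barcodes had at least 2 UMIs of Ace and Ear2 together.

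All animals were pre-diabetic females in a study of type 1 diabetes, and all carried floxed Ocab alleles (Ocabfl/fl). Ocab is an older name of Pou2af1, which encodes a transcriptional coactivator. Controls had the floxed alleles alone. The CD4-Cre animals (Ocabfl/fl.CD4-Cre) also carried Cre recombinase driven by Cd4 sequences. This driver is switched on in thymocytes that carry both CD4 and CD8, so that CD8 T cells as well as CD4 T cells descend from Cre-expressing cells. The pancreas libraries held CD45+ cells, sorted by flow cytometry from 12-week-old animals, with 4 mice in each group. The lymph node libraries held CD3 T cells, separated magnetically at 8 weeks of age, with 5 mice in each group. Each of the 4 groups is 1 library, so every difference below compares libraries and carries no test. The labels give no strain, and no control with Cre and unfloxed alleles was analysed here. Tissue, age and cell selection differ together, so genotypes were compared only within a tissue.

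The 4 genes are known together from killer lymphocytes at the end of their differentiation. S1pr5 encodes a receptor for sphingosine-1-phosphate, a lipid abundant in blood, and is used by NK cells and effector T cells to leave tissue for the circulation. Cx3cr1 encodes the receptor of fractalkine, a chemokine held on inflamed endothelium, and is also a mark of patrolling monocytes and of many tissue macrophages. Klrg1 encodes an inhibitory receptor that binds cadherins and marks short-lived effector CD8 T cells and mature NK cells. Zeb2 encodes a zinc-finger repressor that acts with T-bet (Tbx21) in terminal effector CD8 T cells and NK cells, and is also used by B cells and myeloid cells.

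All 4 are protein-coding genes on the minus strand (GRCm38, GENCODE M21). S1pr5 (ENSMUSG00000045087) lies at chr9:21242912-21248443 and Cx3cr1 (ENSMUSG00000052336) at chr9:119901616-120069879. Klrg1 (ENSMUSG00000030114) lies at chr6:122270596-122282882 and Zeb2 (ENSMUSG00000026872) at chr2:44983632-45117395. Promoters of 3 of the 4 genes matched RefSeq entries (GRCm38.p6), 6 start sites in all. No entry was matched for Klrg1. The 250 bases before the start site are shown for S1pr5 and Cx3cr1, found together in more control CD8-only T barcodes (36) than any other pair of the 4, and for 3 start sites of Zeb2, of which the second and the fourth hold a T-box core in capitals. All are written 5′ to 3′ on the minus strand of the chromosome.
S1pr5, chr9:21248444-21248693: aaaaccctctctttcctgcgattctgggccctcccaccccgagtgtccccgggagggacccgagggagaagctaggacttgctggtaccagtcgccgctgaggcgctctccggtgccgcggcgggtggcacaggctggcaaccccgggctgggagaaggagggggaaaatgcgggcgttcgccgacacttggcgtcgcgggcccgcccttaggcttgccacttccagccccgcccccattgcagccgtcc
Cx3cr1, chr9:120068297-120068546: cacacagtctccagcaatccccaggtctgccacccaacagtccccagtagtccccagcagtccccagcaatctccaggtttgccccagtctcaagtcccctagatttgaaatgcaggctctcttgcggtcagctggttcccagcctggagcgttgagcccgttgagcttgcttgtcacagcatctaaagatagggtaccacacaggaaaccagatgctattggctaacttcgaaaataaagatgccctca
Zeb2 start site 1, chr2:45117443-45117692: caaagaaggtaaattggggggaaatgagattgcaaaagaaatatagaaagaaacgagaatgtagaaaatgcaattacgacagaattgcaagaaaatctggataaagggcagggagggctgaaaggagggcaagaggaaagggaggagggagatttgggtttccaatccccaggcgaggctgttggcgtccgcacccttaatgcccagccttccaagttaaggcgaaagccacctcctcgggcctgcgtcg
Zeb2 start site 2, chr2:45113280-45113529: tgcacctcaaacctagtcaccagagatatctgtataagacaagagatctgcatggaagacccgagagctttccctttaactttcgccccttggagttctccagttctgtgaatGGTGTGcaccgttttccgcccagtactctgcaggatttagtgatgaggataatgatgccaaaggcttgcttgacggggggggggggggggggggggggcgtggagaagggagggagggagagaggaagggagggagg
Zeb2 start site 4, chr2:45110278-45110527: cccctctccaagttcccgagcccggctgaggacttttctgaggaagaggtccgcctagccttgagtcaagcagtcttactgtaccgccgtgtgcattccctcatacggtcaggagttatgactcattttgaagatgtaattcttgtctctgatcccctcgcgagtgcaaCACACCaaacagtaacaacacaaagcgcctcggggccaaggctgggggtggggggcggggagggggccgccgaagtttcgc
Letters were searched on both strands. The octamer ATGCAAAT, to which the POU factors that recruit OCA-B bind, was in none of the 6 windows and in 1.6% of 32851 mouse promoters of the same length. The T-box sequence AGGTGTGA was in none of the 6 and in 1.12% of all. Its core GGTGTG, contained in the longer T-box sequence, was in Zeb2 start sites 2, 3 and 4 and in 16.3% of all promoters. The windows of start sites 2 and 3 overlap and share 1 match, at position -137 from start site 2, and the match of start site 4 is on the opposite strand at -81. The E-box CACCTG, bound by ZEB proteins, was in none of the 6 and in 17.2% of all. These are matches of letters, and binding was not measured.

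The libraries listed 3059 to 6963 barcodes and 14851217 to 32798133 UMIs, and 2843 to 6241 barcodes were kept, with medians of 3595 to 4606 UMIs. Any pair of libraries shared 21 to 70 barcode sequences, 0.352% to 1.31% of a library. As a check of the labels, Pou2af1 was read in CPM (UMIs of the gene per 1000000 UMIs of the class), although the labels do not give the deleted part, so that a shortened message could still be counted. In lymph node CD8-only T barcodes it had 16 UMIs in the control and 2 in CD4-Cre, and in CD4-only T barcodes 42 and 1. In the pancreas it had 23 and 5 UMIs in CD8-only T and 22 and 34 in CD4-only T (5.78 and 4.03 CPM), where the intervals overlap. Pancreas CD8-only T barcodes with no UMI of 11 marker genes of other lineages, listed below, held 5 and 0 UMIs. B cells, which express the gene, were at 222 and 240 CPM. The lymph node counts thus follow the labels, and the pancreas CD4-only T counts do not separate the libraries. The lymph node also held 42 B barcodes in the control and 1 in CD4-Cre. Lymph node CD8-only T barcodes without the 11 marker genes, which include Cd79a and Ms4a1, held 14 and 0 Pou2af1 UMIs. The part of B cell RNA in the lymph node counts was not tested. All 6 CD8 T markers, 6 NK markers and 8 monocyte markers were detected in at least 10% of the barcodes of their class in both pancreas libraries. These lists include the genes that define each class, so this was partly set by the rules. All 5 macrophage markers also reached 10% in the monocyte class of both libraries, so the markers do not separate monocytes from macrophages. The pancreas classes held 450 control and 684 CD4-Cre CD8-only T barcodes, 292 and 400 NK barcodes, and 140 and 183 monocyte barcodes.

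In CD8-only T barcodes of the pancreas all 4 genes were at a lower level in the CD4-Cre library. S1pr5 was at 35.0 CPM in the control (27.6 to 43.8, exact Poisson 95% interval) and at 5.04 CPM in CD4-Cre (2.99 to 7.96). These levels rest on 77 and 18 UMIs, which gives a log2 ratio, taken as CD4-Cre over the control, of -2.80 (-3.63 to -2.04). Of the 18 CD4-Cre UMIs 8 came from a single barcode, and without the richest barcode of each library the log2 ratio was -3.54. Without doublet removal it was -1.60, and with all barcodes listed -1.61. All intervals here and below cover counting error only, not the spread between mice or preparations. Klrg1 was at 40.9 CPM (90 UMIs) in the control and 8.12 CPM (29 UMIs) in CD4-Cre, and its log2 ratio was -2.33 (-2.99 to -1.72). For Cx3cr1 the control had 73.7 CPM (162 UMIs) and CD4-Cre 20.4 CPM (73 UMIs), a log2 ratio of -1.85 (-2.27 to -1.44). Zeb2 stood at 51.4 CPM (113 UMIs) against 21.0 CPM (75 UMIs), a log2 ratio of -1.29 (-1.73 to -0.86). The ratios of the 3 surface receptors lay lower than that of the transcription factor Zeb2, although the intervals of Cx3cr1 and Zeb2 overlap. The CPM intervals of control and CD4-Cre did not overlap for any of the 4, which were selected on these values. The share of all tested genes without such overlap was not counted, so this adds no evidence.

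**Figure D1:**
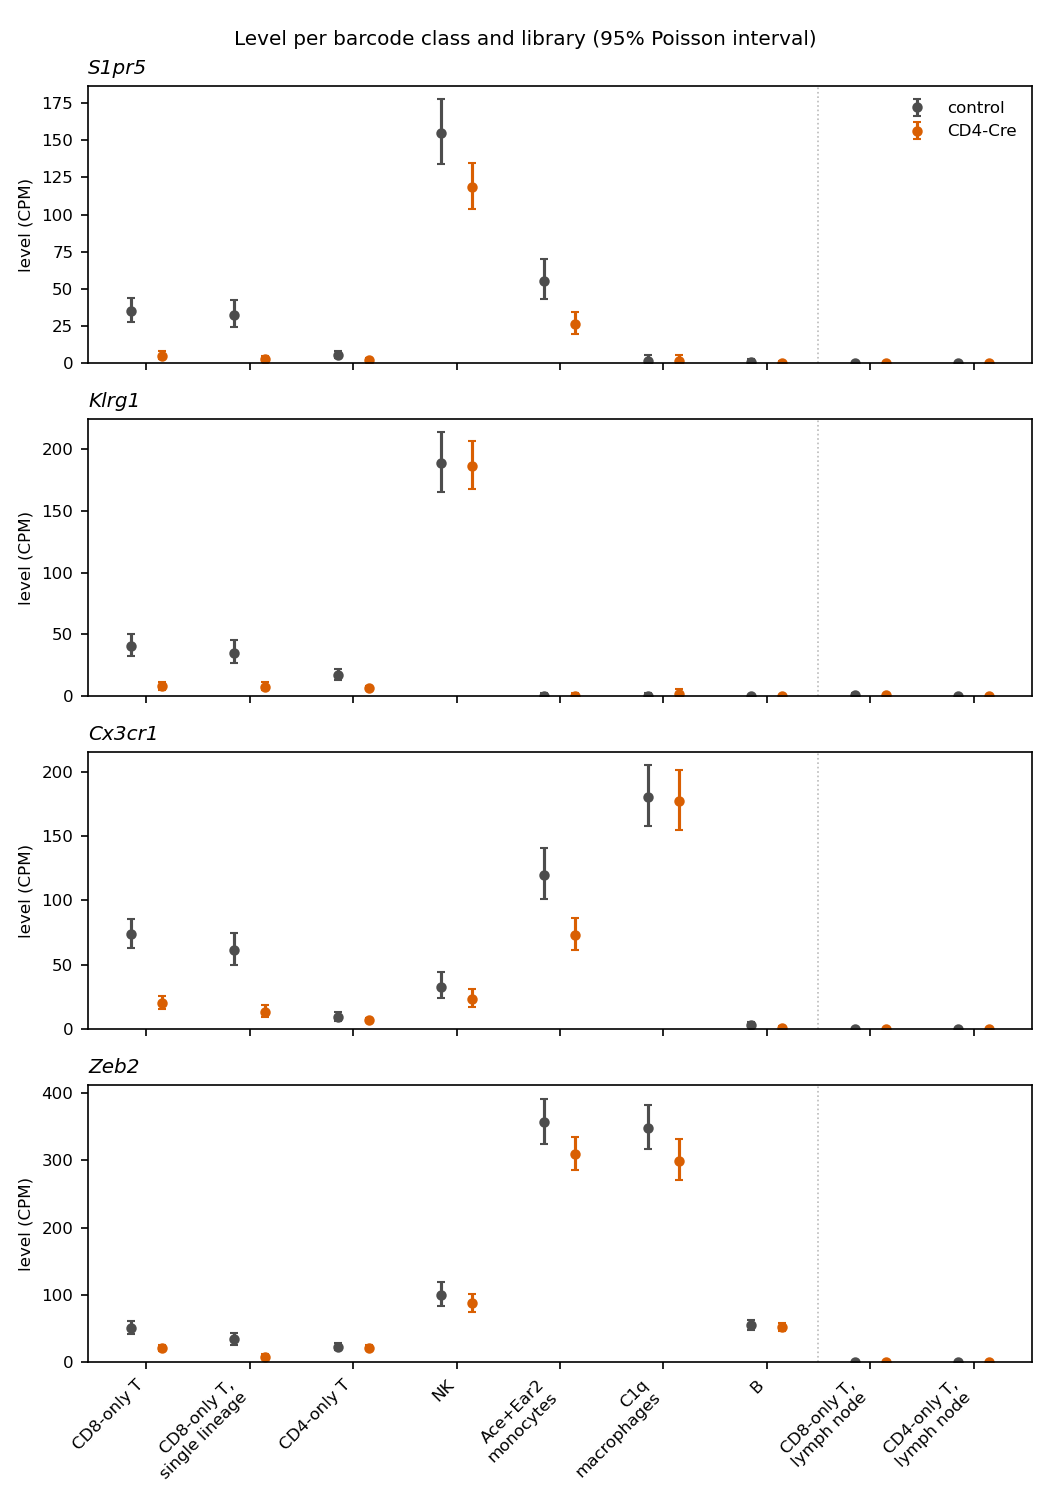
Level of S1pr5, Klrg1, Cx3cr1 and Zeb2 in each class of barcodes of the pancreas and lymph node libraries, in CPM on the y axis, with exact Poisson 95% intervals as bars and 1 library per point. In CD8-only T barcodes of the pancreas the 4 control points lie between 35.0 and 73.7 CPM and the CD4-Cre points between 5.04 and 21.0 CPM.

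Among the 9786 genes with at least 20 UMIs over both pancreas libraries, 229 (2.34%) were at least 2-fold lower in the CD4-Cre CD8-only T barcodes and 246 (2.51%) at least 2-fold higher. All 4 genes are among the 229, as the selection required. Counted from the lowest ratio, S1pr5 was at position 16, Klrg1 at 22, Cx3cr1 at 38 and Zeb2 at 99. Ms4a7 (-2.87) stood next below S1pr5 and Trav13-2 (-2.67) next above it, while Klra1 (-1.29) and Rcor3 (-1.29) flanked Zeb2. The middle 90% of tested genes lay between log2 ratios of -0.73 and 0.70, with a median of -0.01.

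Fewer barcodes of the CD4-Cre library held a UMI of each gene. S1pr5 was detected in 41 of 450 control barcodes (9.11%) and 10 of 684 CD4-Cre barcodes (1.46%), and held 1.88 and 1.80 UMIs per positive barcode. Klrg1 was detected in 48 (10.7%) and 18 (2.63%), with 1.88 and 1.61 UMIs per positive barcode. Cx3cr1 was detected in 67 (14.9%) and 30 (4.39%), and Zeb2 in 62 (13.8%) and 40 (5.85%). Their UMIs per positive barcode were 2.42 and 2.43 for Cx3cr1 and 1.82 and 1.88 for Zeb2. This measure cannot fall below 1, and the S1pr5 value of CD4-Cre includes the barcode with 8 UMIs. Median depths were 3847.5 UMIs in the control and 4034 in CD4-Cre, so the library with fewer positive barcodes was not the shallower. When each barcode was reduced to 1000 UMIs, the expected shares were 4.43% and 0.378% for S1pr5, 3.89% and 0.714% for Klrg1, 6.93% and 1.52% for Cx3cr1, and 4.94% and 1.20% for Zeb2. B cells, with median depths of 3575 and 3447 UMIs, served as the background for free RNA. Of 921 control and 1356 CD4-Cre B barcodes, S1pr5 was found in 2 and 2, Klrg1 in 0 and 2, and Cx3cr1 in 4 and 6. Zeb2, which B cells express, was found in 14.4% and 14.5% of them, so B cells give no background for it. Cx3cr1 had 15 and 8 UMIs in B barcodes, 3.62 and 1.33 CPM, in 0.434% and 0.442% of them, and 8 of the 15 came from 1 barcode. For S1pr5, Klrg1 and Cx3cr1 the CD8-only T shares of both libraries lie above the B cell shares.

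The share of barcodes in which the 4 messages coincided was also smaller in CD4-Cre. In the control 339 CD8-only T barcodes held none of the 4 genes, 55 held 1, 22 held 2, 17 held 3 and 17 held all 4. In CD4-Cre 615 held none, 48 held 1, 14 held 2, 6 held 3 and 1 held all 4. Barcodes with at least 2 of the 4 were 56 of 450 in the control, 12.4% (9.54 to 15.9, exact Clopper-Pearson 95% interval), and 21 of 684 in CD4-Cre, 3.07% (1.91 to 4.65). The difference was -9.37 percentage points (-12.9 to -6.22, Newcombe interval). Reduced to 1000 UMIs a barcode, the expected shares were 5.18% and 0.440%, and in B cells they were 0.0295% and 0.0178%.

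**Figure D2:**
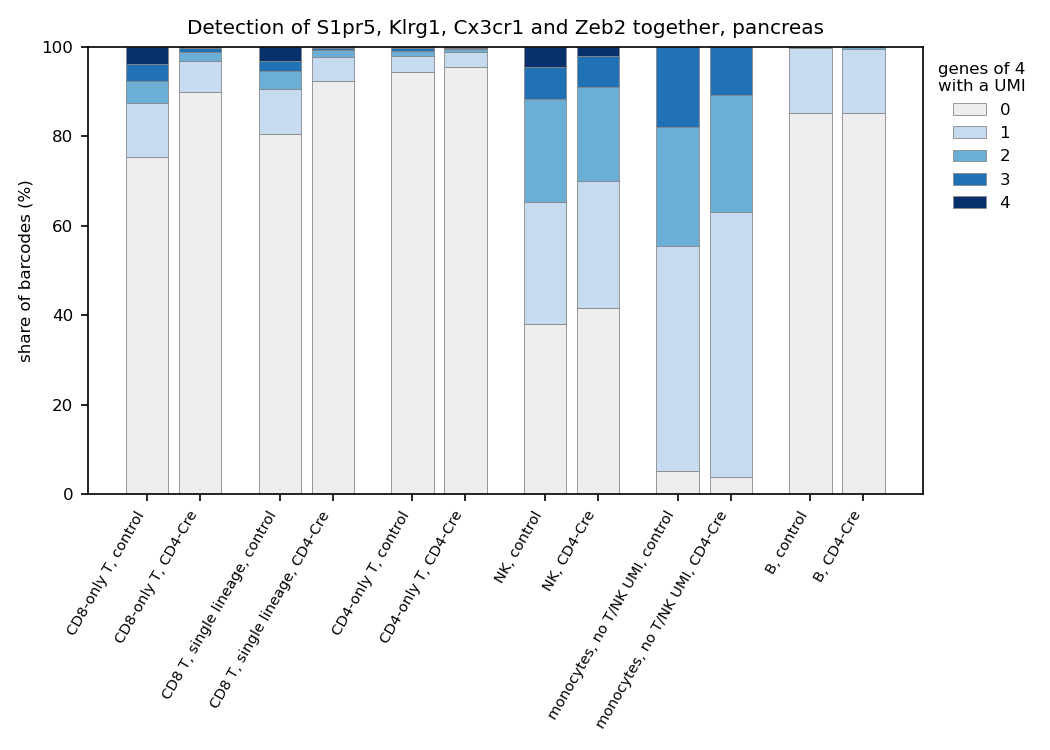
Share of barcodes, in percent on the axis, that hold UMIs of 1, 2, 3 or all 4 of the genes in each pancreas class of each library. Barcodes with at least 2 make up 12.4% of control and 3.07% of CD4-Cre CD8-only T, against 34.6% of control NK and 120 of 400 CD4-Cre NK barcodes.

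Some CD8-only T barcodes with these messages also held genes of other lineages. The 10 genes that stood highest in control barcodes with at least 2 members over those with none, among 894 genes ranked, were Lyz1, Retnla, Lyz2, Ccl6, H2-M2, C1qc, Plbd1, Wfdc17, H2-Ab1 and C1qa, all known from macrophages or other antigen-presenting cells. A few barcodes carried them: 1002 of 1003 Retnla UMIs came from 1 barcode, and Lyz2 was found in 7 of 56. The summed level of the 5 macrophage markers was 25.2 CPM in control barcodes with no member, 2559 with 1 and 4311 with at least 2, and in CD4-Cre it was 19.8, 3543 and 3618 in that order. Trdc, of gamma-delta T cells, was found in 11 of the 56 control and 4 of the 21 CD4-Cre barcodes with at least 2 members, and Ncr1, of NK cells, in 3 and 4. Over all CD8-only T barcodes, exocrine markers summed to 80.0 CPM in the control and 1899 CPM in CD4-Cre, and macrophage markers to 1101 and 654 CPM. The part of these other cells in the full set's values was not tested. The values that follow leave out barcodes with any of 11 marker genes, none of which is an exocrine marker.

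After removal of every barcode with a UMI of Lyz2, Csf1r, C1qa, C1qb, C1qc, Ace, Ear2, Cd79a, Ms4a1, Ncr1 or Trdc, 371 control and 601 CD4-Cre single-lineage CD8-only T barcodes remained, a set chosen after the data had been seen. S1pr5 was at 32.3 CPM in the control (53 UMIs in 30 barcodes) and 2.44 CPM in CD4-Cre (7 UMIs in 6 barcodes), a log2 ratio of -3.73 (-5.11 to -2.58). Klrg1 was at 35.3 and 7.67 CPM, a log2 ratio of -2.20 (-2.98 to -1.47). The levels of Cx3cr1 were 61.5 and 13.6 CPM, a log2 ratio of -2.18 (-2.75 to -1.63). Zeb2 was at 34.1 and 8.71 CPM, a log2 ratio of -1.97 (-2.71 to -1.27). The differences in S1pr5 and Zeb2 were thus larger without those barcodes. That in Cx3cr1 was larger and that in Klrg1 smaller, both within the intervals of the full set. At least 2 members were found in 35 of 371 control barcodes (9.43%, 6.66 to 12.9) and 13 of 601 CD4-Cre barcodes (2.16%, 1.16 to 3.67). All 4 were found together in 12 control barcodes and 1 CD4-Cre barcode. UMIs per positive barcode were 1.77 in the control and 1.17 in CD4-Cre for S1pr5, 1.81 and 1.69 for Klrg1, 2.30 and 1.77 for Cx3cr1, and 1.70 and 1.09 for Zeb2. In this set both the share of positive barcodes and their UMIs were thus lower in CD4-Cre for all 4 genes.

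The composition of the CD8 compartment also differed between the libraries. Ccl5, a chemokine that antigen-experienced CD8 T cells hold at high levels, reached at least 3 UMIs in 310 of 450 control barcodes (68.9%) and 310 of 684 CD4-Cre barcodes (45.3%). In barcodes without a Ccl5 UMI, 123 in the control and 347 in CD4-Cre, S1pr5 and Klrg1 had 0 UMIs in both libraries, Cx3cr1 had 1 and 0, and Zeb2 had 17 and 20. S1pr5, Klrg1 and Cx3cr1 were thus found almost wholly in barcodes with Ccl5. Within the 310 and 310 barcodes with at least 3 Ccl5 UMIs, S1pr5 was at 49.5 and 9.58 CPM, a log2 ratio of -2.37 (-3.20 to -1.62), and Klrg1 at 57.9 and 15.4 CPM, a log2 ratio of -1.91 (-2.56 to -1.29). Cx3cr1 was at 101 and 38.9 CPM, a log2 ratio of -1.38 (-1.80 to -0.97). Zeb2 was at 60.5 and 28.8 CPM, a log2 ratio of -1.07 (-1.58 to -0.57). All 4 were at least 2-fold lower among the barcodes with Ccl5, where 2.08% of 8908 genes were. The barcodes with Ccl5 hold the same S1pr5 and Klrg1 UMIs as all CD8-only T barcodes, so those ratios repeat the selection over smaller totals. They also hold 157 of 162 control and all 73 CD4-Cre Cx3cr1 UMIs, and 94 of 113 and 54 of 75 Zeb2 UMIs. The ratios of all 4 genes thus largely repeat the selection, and their place past 2-fold adds no evidence. Barcodes with at least 2 members were 17.7% of the control and 6.77% of the CD4-Cre barcodes with Ccl5. Within single-lineage barcodes with Ccl5 the log2 ratios were -3.24 for S1pr5, -1.72 for Klrg1, -1.69 for Cx3cr1 and -1.50 for Zeb2.

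**Figure D3:**
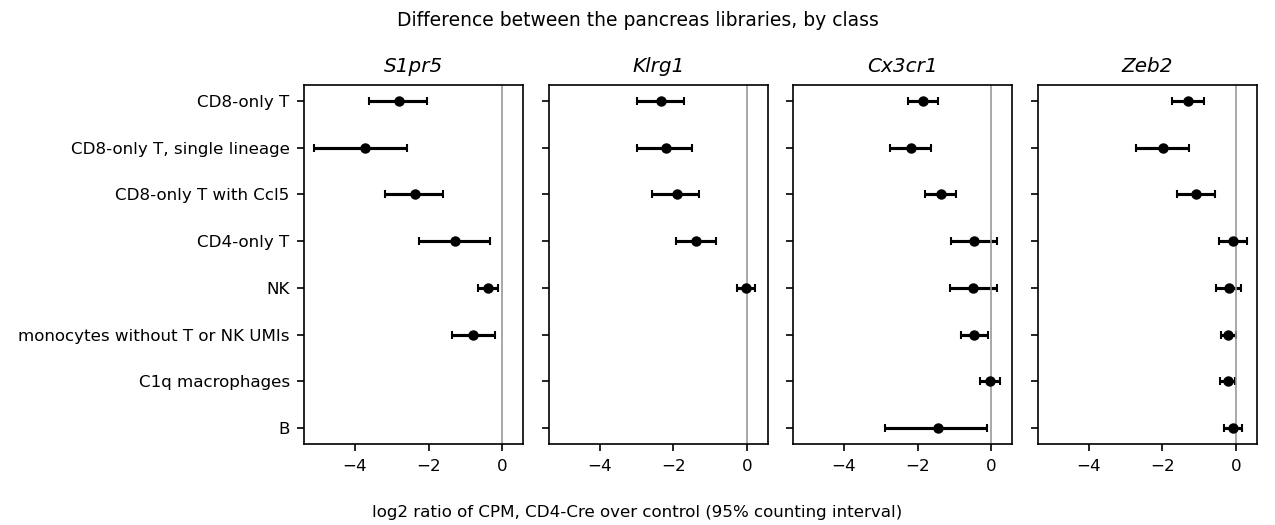
Log2 ratio of CPM, CD4-Cre over control, for each of the 4 genes in pancreas classes, with exact conditional binomial 95% intervals for counting error as bars and a line at 0, for genes with at least 20 UMIs in the class. The CD8-only T ratios lie between -2.80 and -1.29, and the NK ratios between -0.48 and -0.01.

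Barcodes just inside and just outside the CD8 rule were examined. Those with exactly 1 CD8 UMI, 35 in the control and 63 in CD4-Cre, held S1pr5 in 2 and 2, Klrg1 in 3 and 1, Cx3cr1 in 4 and 1 and Zeb2 in 8 and 4. T barcodes with neither a CD8 nor a Cd4 UMI, 947 and 1277, were just outside. There S1pr5 was at 17.2 CPM in the control and 19.4 CPM in CD4-Cre, Klrg1 at 26.2 and 23.4 CPM, Cx3cr1 at 19.7 and 10.3 CPM and Zeb2 at 38.0 and 38.2 CPM. In these barcodes the widest difference between the libraries was that of Cx3cr1. The NK rule excludes Cd3e but not Cd3d, and 54 control and 85 CD4-Cre NK barcodes held a Cd3d UMI. NK barcodes can therefore be among these T barcodes, and their part in these levels was not tested. For the monocyte rule, 8 control and 15 CD4-Cre barcodes had exactly 2 Ace and Ear2 UMIs, 132 and 168 had at least 3, and 23 and 40 had exactly 1.

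CD4-only T barcodes had at least 1 Cd4 UMI and none of Cd8a or Cd8b1. In the CD4-Cre animals, but not in the controls, CD4 T cells descend from Cre-expressing thymocytes too. The pancreas held 909 CD4-only T barcodes in the control and 2035 in CD4-Cre. S1pr5 was at 5.52 CPM (21 UMIs) and 2.25 CPM (19 UMIs), a log2 ratio of -1.29 (-2.27 to -0.33). Klrg1 was at 17.1 CPM (65 UMIs) and 6.52 CPM (55 UMIs), a log2 ratio of -1.39 (-1.93 to -0.85). Both were lower in CD4-Cre, at levels below those of the control CD8-only T barcodes. Cx3cr1 was at 9.72 and 6.997 CPM, a log2 ratio of -0.47 (-1.09 to 0.16), and Zeb2 at 23.1 and 21.9 CPM, a log2 ratio of -0.08 (-0.45 to 0.31). The intervals of these 2 ratios include 0. Thus 2 of the 4 genes were at least 2-fold lower, where 1.76% of 10679 genes were. At least 2 members were found in 1.98% of control and 1.23% of CD4-Cre CD4-only T barcodes. Of the CD4-only T barcodes 10 in the control and 21 in CD4-Cre were also monocyte barcodes. Macrophage markers summed to 899 and 925 CPM in this class. It was not read again without barcodes of other lineages, so the part of other cells in its values was not tested.

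NK cells do not derive from CD4-Cre-expressing thymocytes, and of the classes measured they held the highest levels of S1pr5 and Klrg1. S1pr5 was at 155 CPM (201 UMIs) in the control and 118 CPM (235 UMIs) in CD4-Cre, with a log2 ratio of -0.39 (-0.67 to -0.11). It was detected in 41.1% and 34.3% of NK barcodes, or 16.1% and 12.6% at 1000 UMIs. Klrg1 was at 189 CPM (245 UMIs) and 187 CPM (371 UMIs), a log2 ratio of -0.01 (-0.25 to 0.22). Cx3cr1 was rarer in NK barcodes than in control CD8-only T barcodes, at 33.1 CPM (43 UMIs) and 23.6 CPM (47 UMIs), a log2 ratio of -0.48 (-1.11 to 0.15). Zeb2 was at 100 CPM (130 UMIs) and 87.5 CPM (174 UMIs), a log2 ratio of -0.19 (-0.53 to 0.15). None of the 4 was 2-fold lower in NK barcodes, where 1.78% of 8783 genes were. S1pr5 is the 1 of the 4 whose interval excludes 0 there. The share of all tested genes with such an interval was not counted, so this adds no evidence. A Cd3d UMI was found in 54 of 292 and 85 of 400 NK barcodes. In those without it the log2 ratios were -0.40 for S1pr5, 0.04 for Klrg1, -0.56 for Cx3cr1 and -0.23 for Zeb2. At least 2 members were found in 101 of 292 control (34.6%) and 120 of 400 CD4-Cre NK barcodes, or 9.18% and 6.56% at 1000 UMIs. Median depth was 3849.5 UMIs in the control NK barcodes and 4262 in CD4-Cre.

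A list of 11 NK maturation genes gives the wider setting. None was 2-fold different in NK barcodes, 9 lay below 0, and the median log2 ratio was -0.12, beside 0.06 over all tested genes. Itgam, the integrin chain CD11b that rises as NK cells mature, was at 51.6 and 27.7 CPM, a log2 ratio of -0.90. Gzmb, the cytotoxic protease granzyme B, was at -0.43 and Tbx21, encoding T-bet, at 0.18.

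Monocyte barcodes held the genes in another combination, with Zeb2 and Cx3cr1 but almost no Klrg1. Zeb2 was at 357 CPM (447 UMIs) in the control and 309 CPM (613 UMIs) in CD4-Cre, with a log2 ratio of -0.21 (-0.39 to -0.03), and was detected in 86.4% and 86.9% of barcodes. Cx3cr1 was at 120 CPM (150 UMIs) and 73.2 CPM (145 UMIs), a log2 ratio of -0.71 (-1.05 to -0.37). S1pr5 was at 55.1 CPM (69 UMIs) and 26.2 CPM (52 UMIs), a log2 ratio of -1.07 (-1.62 to -0.53), and was found in 37 of 140 and 33 of 183 barcodes. Of the 3 genes with enough UMIs, S1pr5 was at least 2-fold lower, where 1.53% of 8608 genes were. Klrg1 had 0 UMIs in the control and 1 in CD4-Cre, so S1pr5 was present in these barcodes with almost no Klrg1. A Cd3e UMI was found in 18 of 140 control and 48 of 183 CD4-Cre monocyte barcodes. Without barcodes holding T or NK UMIs, 117 and 130 remained. There S1pr5 was at 63.1 and 36.7 CPM, a log2 ratio of -0.78 (-1.37 to -0.20), Cx3cr1 at 130 and 94.8 CPM, a log2 ratio of -0.46 (-0.83 to -0.08), and Zeb2 at 388 and 337 CPM, a log2 ratio of -0.20 (-0.41 to 0.00). In this set 0 of the 3 genes tested were 2-fold lower, where 1.79% of 7523 genes were.

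Of 15 genes listed for these monocytes 14 were tested, and 13 lay below 0 in both sets. Their median log2 ratio was -0.54 in all monocyte barcodes and -0.45 without T or NK UMIs, beside 0.01 and -0.02 over all tested genes. Nr4a1, a nuclear receptor needed for patrolling monocytes, was at 385 and 266 CPM, a log2 ratio of -0.54. Treml4, a receptor of these monocytes, was at -0.73, Cebpb, a transcription factor of the myeloid line, at -0.59 and Pou2f2, a POU factor of the octamer, at -0.63. Ly6c2, a surface protein of classical monocytes, was the 1 gene of the list past 2-fold in all monocyte barcodes, at 36.7 and 17.2 CPM (-1.10). Without T or NK UMIs it was at -0.30 (-1.09 to 0.50), and none of the list passed 2-fold. Cd36, a scavenger receptor, at 0.39, was the only tested gene of the list above 0 among all monocyte barcodes. The lower Cx3cr1 and S1pr5 of the CD4-Cre monocyte barcodes stood beside ratios below 0 for 13 of these 14 genes, while the 8 monocyte markers summed to 21234 and 19661 CPM. What part this had in them was not tested.

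C1q macrophages of the pancreas, 133 control and 120 CD4-Cre barcodes, expressed Cx3cr1 at 180 and 177 CPM and Zeb2 at 348 and 299 CPM, log2 ratios of -0.03 and -0.22. Of these barcodes 32 in the control and 49 in CD4-Cre were also monocyte barcodes, so the levels of the 2 classes are not independent. S1pr5 had 2 and 2 UMIs there and Klrg1 0 and 2. Ordered by the control level, S1pr5 ran from NK (155 CPM) through monocytes (55.1) and CD8-only T (35.0) to CD4-only T (5.52), and the intervals of monocytes (42.9 to 69.8) and CD8-only T (27.6 to 43.8) overlap. Klrg1 ran from NK (189 CPM) through CD8-only T (40.9) to CD4-only T (17.1), with no overlap of intervals. For Cx3cr1 the order was C1q macrophages (180 CPM), monocytes (120), CD8-only T (73.7), NK (33.1) and CD4-only T (9.72), again without overlap. Zeb2 was highest in monocytes (357 CPM) and C1q macrophages (348), which overlap, followed by NK (100), B cells (55.7) and CD8-only T (51.4), of which the last 2 overlap. In CD4-Cre the CD8-only T levels are the values selected as low, so the overlaps that follow repeat the selection. The Cx3cr1 levels of CD8-only T (20.4 CPM, 16.0 to 25.7) and NK (23.6 CPM, 17.4 to 31.4) overlapped there. The intervals of CD8-only T and CD4-only T also overlapped in CD4-Cre for S1pr5, Klrg1 and Zeb2, which in the control they did not for any of these.

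In the lymph node at 8 weeks the 4 genes were nearly absent from T cells. S1pr5 and Cx3cr1 had 0 UMIs in 719 control and 1510 CD4-Cre CD8-only T barcodes, which allows a share of barcodes with a UMI of up to 0.417% and 0.199%. The same counts allow levels of up to 0.717 and 0.351 CPM. Klrg1 had 4 UMIs in 2 control barcodes and 6 UMIs in 3 CD4-Cre barcodes, all of them among the 21 and 60 barcodes with at least 3 Ccl5 UMIs. Zeb2 had 0 and 2 UMIs. CD4-only T barcodes of the lymph node held no S1pr5 or Cx3cr1 UMI, 1 and 6 of Klrg1 and 3 and 2 of Zeb2. At these counts no difference between the genotypes was detectable.

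Co-detection was then read gene by gene. Of 41 control CD8-only T barcodes with S1pr5, 36 (87.8%) also held Cx3cr1, 25 (61.0%) Klrg1 and 24 (58.5%) Zeb2. Among the 409 without S1pr5 the shares were 7.58%, 5.62% and 9.29%. S1pr5 was thus nearly nested within Cx3cr1, while 31 barcodes had Cx3cr1 without S1pr5. Of the 10 CD4-Cre barcodes with S1pr5, 4 held Cx3cr1, 3 Klrg1 and 7 Zeb2. In single-lineage barcodes 25 of 30 with S1pr5 held Cx3cr1 in the control (83.3%) and 3 of 6 in CD4-Cre.

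The pairing differed by cell type. Of 120 control NK barcodes with S1pr5, 62 (51.7%) held Klrg1, 52 (43.3%) Zeb2 and 18 (15.0%) Cx3cr1. Among the 172 without S1pr5 the shares were 26.2%, 17.4% and 1.16%. All 3 were thus more frequent with S1pr5, and the ratio was widest for Cx3cr1. The CD4-Cre NK library had 73 of 137 (53.3%), 56 (40.9%) and 11 (8.03%). Among its 263 NK barcodes without S1pr5 the shares were 25.1%, 18.3% and 2.66%. Cx3cr1 marked a small set of NK barcodes, and of these 20 in the control 18 held S1pr5, 17 Klrg1 and 16 Zeb2. In CD4-Cre 18 NK barcodes held Cx3cr1, of which 11 held S1pr5, 10 Klrg1 and 13 Zeb2. Of 32 control monocyte barcodes with S1pr5 and no T or NK UMI, 26 (81.2%) held Cx3cr1, 25 (78.1%) Zeb2 and 0 Klrg1, and in CD4-Cre 21 of 29 (72.4%) held Cx3cr1. Among monocyte barcodes without S1pr5 the control shares were 29.4% for Cx3cr1 and 89.4% for Zeb2, so Zeb2 was not more frequent with S1pr5 there. In the control libraries Cx3cr1 was therefore more frequent with S1pr5 than without it in all 3 classes, and Klrg1 in CD8-only T and NK. Detection depends on depth and level, which differ between the classes, and these shares carry no test.

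**Figure D4:**
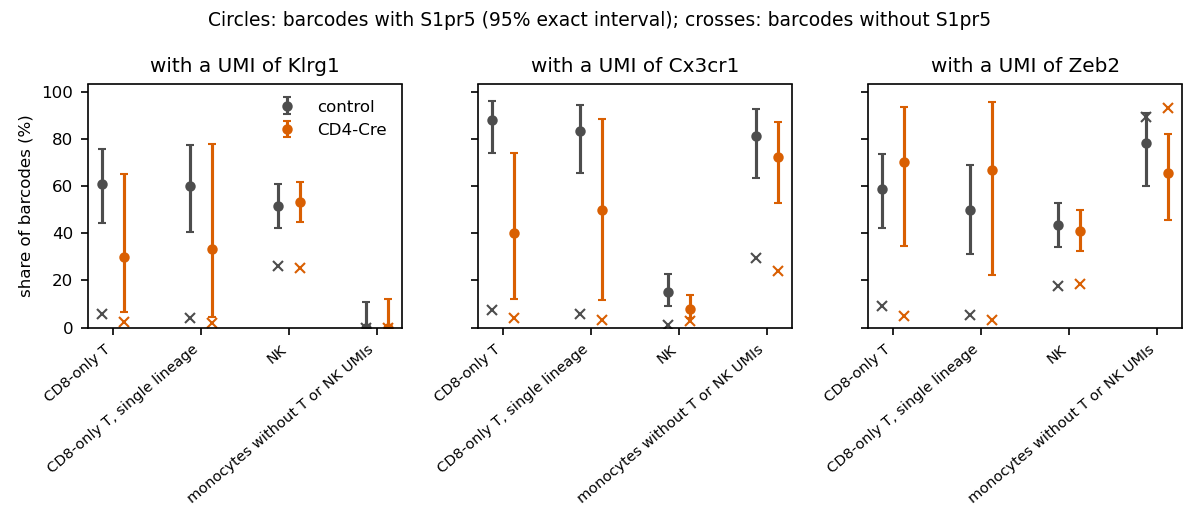
Share of barcodes, in percent on the y axis, with a UMI of Klrg1, Cx3cr1 or Zeb2 among those with S1pr5 (circles, exact Clopper-Pearson 95% interval) and those without (crosses), in 4 sets of pancreas barcodes, control in grey and CD4-Cre in orange. In control CD8-only T, 87.8% of S1pr5 barcodes held Cx3cr1, against 15.0% in control NK barcodes.

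Most other genes of the effector programme had ratios below 0 in CD8-only T barcodes, and 1 was past 2-fold. Of 28 listed 27 were tested, 1 was at least 2-fold lower, 0 were 2-fold higher and 23 lay below 0. Their median log2 ratio was -0.43, beside -0.01 over all tested genes. Gzma, encoding granzyme A, was at 1177 and 418 CPM, a log2 ratio of -1.49 (-1.58 to -1.40), and is the 1 gene past 2-fold, lower than Zeb2. Gzmb was at -0.74, Fasl, the death ligand, at -0.80, Prdm1, encoding Blimp-1, at -0.79 and Ccl5 at -0.74. Tbx21, whose product acts with Zeb2, was at 66.9 and 43.1 CPM, a log2 ratio of -0.63. Klf2, a factor that drives exit from tissue, was at 738 and 833 CPM (0.18), and S1pr1, the main exit receptor of naive and memory T cells, at 116 and 163 CPM (0.48). Over all CD8-only T barcodes S1pr1 thus stood on the other side of 0 from its paralog S1pr5, and S1pr4 (0.10) and S1pr2 (0.04) lay near 0. Among barcodes with at least 3 Ccl5 UMIs S1pr1 was at 0.24 (-0.09 to 0.58) and Klf2 at -0.03 (-0.15 to 0.09), and both intervals include 0. The ligand Cx3cl1 and the kinase Sphk1 had 0 UMIs in this class.

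Memory and naive genes lay mostly on the other side. Of 17 tested, 13 were above 0 and none passed 2-fold, with a median of 0.25. The homing receptor Ccr7 was at 0.72 and the transcription factor Lef1 at 0.47, and Zeb1, the paralog of Zeb2, was at 0.12. Of 11 tissue residence genes 10 lay below 0, with a median of -0.25, among them the integrin chain Itga1 (-0.96). Ccr9, a gut-homing chemokine receptor, was the 1 gene of that list past 2-fold, at 1.38. Exhaustion genes had a median of -0.08 over 8 genes.

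In single-lineage barcodes the effector list had 26 tested genes, of which 23 lay below 0, 3 were at least 2-fold lower and 1 at least 2-fold higher, with a median of -0.65. Gzma was at 963 and 220 CPM (-2.13) and Gzmb at 182 and 43.9 CPM (-2.05). S100a4, a calcium-binding protein of effector cells, was the other at least 2-fold lower, at 212 and 94.8 CPM (-1.16). Ccl3, a chemokine, was the gene 2-fold higher, at 1.07. Over all 9130 genes tested there, 2.02% were at least 2-fold lower and 2.76% at least 2-fold higher. Among barcodes with Ccl5 the effector median was -0.21 over 26 genes, 20 of them below 0, with Gzma (-1.06) the 1 gene past 2-fold in the list. The median of this list and the ratios of the 4 genes all lay nearer 0 among barcodes with Ccl5 than among all CD8-only T barcodes.

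Barcodes with at least 2 of the 4 messages were then set against those with none within the single-lineage set of each library. This grouping uses the 4 genes alone, and the values describe what else those barcodes held. Barcodes without a Ccl5 UMI held almost no S1pr5, Klrg1 or Cx3cr1, so they could hardly enter the group with at least 2 members. The 2 groups therefore differ in their share of such barcodes, and they were not compared within barcodes with Ccl5. Gzma was at 8334 CPM in the 35 control barcodes with at least 2 members (found in 26 of them) and at 92.0 CPM in the 299 with none. In CD4-Cre it was at 4959 CPM in 13 barcodes (found in 7) and 62.5 CPM in 555. Gzmb was at 696 and 62.3 CPM in the control, and 570 and 22.7 CPM in CD4-Cre. In both libraries granzyme messages were thus more abundant in barcodes with at least 2 members, which held 1282 of 1581 Gzma UMIs in the control and 461 of 631 in CD4-Cre. Of the 461 in CD4-Cre 246 came from 1 barcode. Tbx21 was at 260 CPM with at least 2 members and 35.8 CPM with none in the control, and at 96.8 and 30.3 CPM in CD4-Cre. Prf1, encoding perforin, was at 215 and 56.1 CPM, and 151 and 58.2 CPM. Lgals1, a lectin of effector cells, was at 3036 and 845 CPM, and 2496 and 734 CPM. Klf2 had another order in each library. It was at 1502 CPM with at least 2 members and 728 CPM with none in the control, and at 775 and 938 CPM in CD4-Cre. Median depths were 3393 UMIs with at least 2 members and 3688 with none in the control, and 4749 and 3831 in CD4-Cre.

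Many genes of naive and memory cells were low in the same barcodes. Ccr7 was at 32.5 CPM with at least 2 members and 242 CPM with none in the control, and at 53.8 and 331 CPM in CD4-Cre. Tcf7, a factor of memory and naive T cells, was at 45.5 and 203 CPM, and 53.8 and 205 CPM. Itgae, the integrin chain CD103 of resident T cells, was at 13.0 and 88.1 CPM in the control, and in CD4-Cre had 0 UMIs in the 13 barcodes against 63.3 CPM. On the scale of CPM + 10, the effector list had 12 of 26 genes at least 2-fold higher in the control (median log2 ratio 0.89), where 4.69% of 6965 genes were, and 14 of 26 in CD4-Cre (1.14), where 5.51% of 8280 were. In the memory and naive list 7 of 17 genes were at least 2-fold lower in the control (median -0.81), beside 6.59% of all genes, and 9 of 17 in CD4-Cre (-1.23), beside 12.9%. Medians over all genes were 0.07 and 0.02. In the residence list 5 of 10 genes were at least 2-fold lower and 0 higher in the control, and 4 were lower and 2 higher in CD4-Cre. The medians of residence and exhaustion genes were -1.05 and -0.77 in the control and -0.22 and 0.43 in CD4-Cre. In CD4-Cre Pdcd1, encoding PD-1, was at 323 CPM with at least 2 members and 146 CPM with none, against 32.5 and 164 CPM in the control. With 13 barcodes behind the CD4-Cre values, single barcodes weigh heavily: all 63 UMIs of Xcl1, a chemokine, came from 1 of them.

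**Figure D5:**
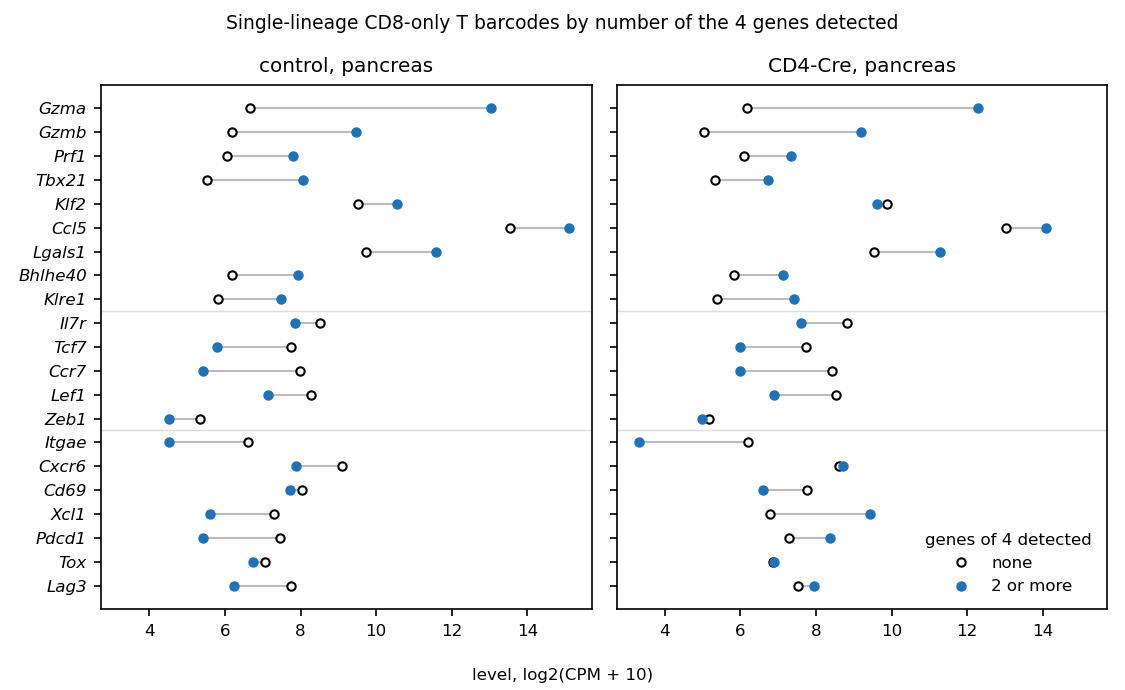
Level, as log2(CPM + 10) on the x axis, of effector genes, memory and naive genes, and residence and exhaustion genes (top to bottom) in single-lineage CD8-only T barcodes of each pancreas library, with at least 2 of the 4 genes (filled) or none (open). Gzma stands at 8334 against 92.0 CPM in the control and at 4959 against 62.5 CPM in CD4-Cre.

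The 10 leading genes of the single-lineage barcodes with at least 2 members in the control, of 338 ranked, were Gzma, Ube2c, Hist1h2ap, Gzmb, H2afx, Ifitm10, Lmnb1, Stmn1, Klrc1 and Lgals1. Ube2c, Hist1h2ap, H2afx, Lmnb1 and Stmn1 are known from dividing cells, and 71 of 73 Ube2c UMIs came from 1 barcode. Gzma had a ratio of 90.6 in the control and 79.3 in CD4-Cre, Lgals1 3.59 and 3.40, and Klrc1, encoding the NK receptor NKG2A, 3.71 and 2.72. Ifitm10, found in 26 of the 35 control barcodes, had a ratio of 4.30 there and 0.754 in CD4-Cre, where 5 UMIs were counted. Klrc1 was found in 21 of 35 control and 4 of 13 CD4-Cre barcodes. The CD4-Cre ratios of the genes of dividing cells were 1.17 for Ube2c, 0.25 for Hist1h2ap, 0.664 for H2afx, 1.604 for Lmnb1 and 3.09 for Stmn1. Of the 10 genes, Gzma, Gzmb, Stmn1, Klrc1 and Lgals1 had a ratio above 2 in both libraries.

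The barcodes with at least 2 members used many T-cell receptor segments. Taking the V segment with most UMIs for each chain, the 31 single-lineage control barcodes with a Trbv segment used 14 different ones, and 22 different Trbv and Trav pairs were found in 25 barcodes with both. In CD4-Cre 10 different Trbv segments were found in 13 barcodes and 8 different pairs in 8. Barcodes with none of the 4 genes had 170 different pairs in 240 control barcodes, where 27 shared Trbv13-3 with Trav16d-dv11, and 275 in 451 CD4-Cre barcodes, where 39 shared Trbv15 with Trav8n-2. V segments alone do not define a clone.

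Across 16 class and library points with at least 50 barcodes, 7773 genes were ranked by how closely their level followed the mean log2(CPM + 10) of the 4 genes. Among the closest were Tab2 (Pearson r 0.966), B4galt5 (0.965), Efhd2 (0.956) and Tln1 (0.955). Between the 4 genes themselves r was 0.885 for Cx3cr1 with Zeb2 and 0.811 for S1pr5 with Klrg1, and 0.466 for S1pr5 with Zeb2, 0.419 for S1pr5 with Cx3cr1, 0.125 for Klrg1 with Cx3cr1 and 0.120 for Klrg1 with Zeb2. These are descriptions over points that share libraries, and S1pr5 was also present in monocytes and Zeb2 in NK barcodes.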

How the data were processed

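Single-cell expression was measured with a 5′ droplet kit in 4 libraries, 1 per group. The deposited values are UMI counts per gene and barcode, not normalized, and the matrices were written by Cell Ranger, version 3.0.0 per the file headers. The submitters' processing notes name Cell Ranger and mm10. The barcode and feature files hold names only, and columns of no sample numbered 0.

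Barcodes with fewer than 500 genes or more than 10% mitochondrial UMIs were dropped. Each listed barcode was scored as a doublet against 2 simulated doublets per barcode (2000 variable genes, 30 components) and the highest removed at 0.8% per 1000 barcodes listed, 75 to 388 per library. Counts were summed per class and scaled to CPM. Log2 ratios have exact conditional binomial intervals at 95%, and the upper limit of a 0 is 3 counts. Shares at 1000 UMIs are the expected share over all draws, leaving out shallower barcodes. A minimum of 20 UMIs, summed over a tissue's libraries, was set for genes tested for a fold of 2. C1q macrophages had at least 3 C1q UMIs, and B cells at least 2 of Cd79a and Ms4a1, both without Cd3e. Ratio intervals were tested on simulated data.

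The labels do not say that mice were kept apart within a library, so no library is a biological replicate of another. The 4 genes, 7 gene lists, classes and alternatives were chosen with earlier results of these data known. Named genes were the 4, the genes of the lists, the 5 most alike by Pearson r of log2(CPM + 10) among genes with at least 50 UMIs, and the 10 with the highest ratio between barcodes with 2 or more members and none. That last ranking leaves out T-cell receptor, immunoglobulin, mitochondrial and ribosomal protein genes. Some of these named genes are not reported here. The alternatives covered barcode filters, doublets, class rules, edgeR 4.0.16 TMM and DESeq2 1.42.0 size factors, weights and count minimums. Python 3.11.15, numpy 2.4.6, scipy 1.17.1, pandas 2.3.3, scikit-learn 1.9.0 and R 4.3.3 were used.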

Additional observations from a re-analysis of the deposited data

How the results depend on the processing

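Over 88 alternatives for the 4 log2 ratios, the share of barcodes with at least 2 members and the count of genes 2-fold lower, 72 values stayed within the counting error or 1.5 times the count, 16 moved and 0 reversed. S1pr5 (-2.80) was -1.61 with all barcodes listed, -1.60 without doublet removal, -3.75 with raised removal at 1.6%, -3.72 without barcodes of other lineages, -3.73 in single-lineage barcodes, -3.87 with equal weight per barcode and -1.58 with a pseudocount of 10 CPM. Klrg1 (-2.33) was -1.49 with the pseudocount. Cx3cr1 (-1.85) was -2.33 with raised removal, -2.50 with equal weight and -1.38 with at least 3 Ccl5 UMIs. Zeb2 (-1.29) was -2.20 with equal weight and -1.97 in single-lineage barcodes. The difference in share was -4.74 points at 1000 UMIs, where fewer UMIs are read, and the 229 genes became 90 at a minimum of 50 UMIs and 391 at 10, by construction. A pseudocount brings ratios of low levels nearer 0 by construction, and for the other moves the cause was not tested. Ratios ranged from -3.87 to -1.58 for S1pr5, -2.52 to -1.49 for Klrg1, -2.50 to -1.38 for Cx3cr1 and -2.20 to -0.99 for Zeb2. No paired analysis was possible because each group has 1 library and the labels carry no replicate numbers. Depth limits the CD4-Cre value of S1pr5, which rests on 18 UMIs in 10 barcodes.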
